A study of Homo sapiens with 18 samples.

Results

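The genes of sterol and fatty acid synthesis were followed in triple-negative breast cancer (TNBC) cell lines in which ASAP1, an Arf GTPase-activating protein, was silenced. The set held 46 of the 19289 genes of the table, taken by symbol, and these were read by 47 of 21111 probes because FDPS has 2. It was divided into 18 genes of the mevalonate and sterol branch, 5 regulators of the SREBP transcription factors, 8 genes of cholesterol transport and storage, and 15 genes of the fatty acid branch. The cells were the established human lines BT549, Hs578T and SUM149PT, which were transfected with 50 nM of a pool of siRNAs against ASAP1 (siASAP1) or with control siRNAs (siCtrl) and lysed after 72 h. Each line had 3 libraries per transfection, 18 in all, and every group is a whole culture of 1 cell line. The study calls the control non-targeting, and its methods describe a pool of kinase siRNAs. The study describes ASAP1 as amplified and highly expressed in these lines.

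Across the 3 cell lines, SREBF2, which encodes the transcription factor that drives the cholesterol genes, was lower after siASAP1 (Log2 FC -1.41 ± 0.23, SE, 9 libraries per transfection), and NCEH1, which encodes a hydrolase of cholesterol esters, was higher (1.59 ± 0.24). These were the only 2 of 36 member probes with an adjusted p under 0.05 in the limma fit over the 3 lines, against 1.74% of all probes. In that fit 14 of the 15 sterol branch probes had a Log2 FC below 0 (median -0.80), compared with 5 of the 10 fatty acid branch probes (median -0.08). No sterol branch gene passed the adjusted threshold in that fit. The median of all 10475 probes tested was 0.02.

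Cells make cholesterol from acetyl-CoA through mevalonate, isoprenoids, squalene and lanosterol, and make fatty acids from the same acetyl-CoA by way of malonyl-CoA. When the endoplasmic reticulum is poor in cholesterol, SCAP escorts the SREBP precursors to the Golgi, where proteases release the active transcription factor. INSIG proteins hold SCAP back when sterols are plentiful. The SREBF2 product acts mainly on sterol genes, and the main products of SREBF1 act on fatty acid genes. Cholesterol that is not needed is esterified by SOAT1 and stored in droplets, NCEH1 and LIPA release it from the esters, NPC1 and NPC2 carry it out of lysosomes, and ABCA1 and ABCG1 export it.

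SREBPs bind sterol regulatory elements in promoters, often beside a CCAAT box, the site of the factor NF-Y, and a GC box, the site of Sp1. The promoter stretches below are shown because they belong to the genes on which the results turn, or because they hold the sterol element searched for. They are the 250 bases before an annotated start in RefSeq on GRCh38.p14, written 5′ to 3′ on the strand of the gene. ACSL1 has 5 such starts, and the 1 shown, which lies inside the gene, was taken because it held the sterol element. Capitals mark matches on either strand to TCACNCCAC, a form of the sterol element, and to CCAAT. SREBF2 is shown from chr22:41832855-41833104 (plus strand), NCEH1 from chr3:172711068-172711317 (minus strand), MSMO1 from chr4:165327419-165327668 (plus strand) and ACSL1 from chr4:184805554-184805803 (minus strand). NCEH1 and MSMO1 were chosen after their values were seen.
SREBF2: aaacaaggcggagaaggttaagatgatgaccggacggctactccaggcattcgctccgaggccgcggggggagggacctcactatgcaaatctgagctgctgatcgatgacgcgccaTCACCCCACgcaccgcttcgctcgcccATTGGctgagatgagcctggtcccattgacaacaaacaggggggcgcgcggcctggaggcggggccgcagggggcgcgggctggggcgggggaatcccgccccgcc
NCEH1: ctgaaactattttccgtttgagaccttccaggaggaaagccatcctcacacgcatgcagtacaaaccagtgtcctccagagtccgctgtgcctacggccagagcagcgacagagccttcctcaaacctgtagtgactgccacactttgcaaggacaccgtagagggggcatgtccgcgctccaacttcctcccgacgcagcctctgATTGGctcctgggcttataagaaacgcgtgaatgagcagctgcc
MSMO1: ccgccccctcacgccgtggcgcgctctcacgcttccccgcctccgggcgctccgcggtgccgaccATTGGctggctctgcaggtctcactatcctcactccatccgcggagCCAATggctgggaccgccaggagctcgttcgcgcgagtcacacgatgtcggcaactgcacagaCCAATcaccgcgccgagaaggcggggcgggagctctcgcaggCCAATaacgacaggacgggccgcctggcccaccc
ACSL1: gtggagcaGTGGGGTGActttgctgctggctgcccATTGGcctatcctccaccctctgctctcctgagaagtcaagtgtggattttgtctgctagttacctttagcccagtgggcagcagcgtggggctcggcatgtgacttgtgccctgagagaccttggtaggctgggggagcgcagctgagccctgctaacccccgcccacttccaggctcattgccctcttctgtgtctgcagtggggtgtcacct

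The SREBF2 stretch held TCACCCCAC 133 bases before the start and a CCAAT match on the opposite strand 106 bases before it. The NCEH1 stretch held 1 CCAAT match and no TCACNCCAC, and the MSMO1 stretch held 4 CCAAT matches. For 41 of the 46 genes the table gave 62 windows of 300 bases (250 before the start and 50 from it), and ABCG1, ACAT2, FASN, FDFT1 and SQLE had none. TCACNCCAC was found in 2 of the 62 windows (3.23%), those of SREBF2 and ACSL1 shown above, and in 1.13% of all 35116 windows. CCAAT was found in 15 of the 20 windows of the sterol branch (75%) and in 34.6% of all windows. The GC box GGGCGG was found in 18 of those 20 windows (90%) and in 45% of all windows. The other lists held CCAAT in 33.3% (SREBP regulators, 6 windows), 60% (transport and storage, 10) and 46.2% (fatty acid branch, 26), and GGGCGG in 100%, 80% and 69.2%. The share of GC box and CCAAT windows was counted on both strands, and the 3 motifs do not contain each other. The 20 sterol branch windows belong to 15 genes. Windows of the same gene can overlap, as the 2 of SC5D do, so the same site can count more than once.

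The values are normalized counts, the number of reads of a probe divided by the size factor of its library, and they are given for replicates 1, 2 and 3 in that order. In TempO-Seq a pair of oligonucleotides is ligated on each target RNA and the product is counted, so levels of different probes cannot be set against each other. The libraries held between 4.63 and 12.5 M reads (median 6.63 M). Of the 46 genes, 40 reached a mean normalized count of 10 in at least 1 line and 30 did so in all 3 lines. The 7 member probes that reached it in no line were those of ELOVL1, ELOVL5, ELOVL6, NPC2, ABCG1 and PMVK and the second FDPS probe, and ELOVL1 was at 0 reads in every library. The other FDPS probe and the HSD17B7 probe belong to genes with near-identical copies, and probe sequences were not used here, so their values are uncertain in that respect.

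ASAP1 itself was read in every library. In BT549 it had 367, 730 and 783 normalized counts after siASAP1 and 1107, 966 and 944 after siCtrl. In Hs578T it had 782, 825 and 1261 after siASAP1 and 1641, 1414 and 2697 after siCtrl. In SUM149PT it had 282, 468 and 184 after siASAP1 and 1087, 189 and 1314 after siCtrl. The groups did not overlap in BT549 and Hs578T, whereas the library labelled SUM149PT siCtrl 2 lay among the siASAP1 libraries. The Log2 FC was -0.76 ± 0.39 in BT549 (limma, adjusted p = 0.65), -0.98 ± 0.32 in Hs578T (adjusted p = 0.91) and -1.16 ± 0.77 in SUM149PT (adjusted p = 0.66). Over the 3 lines it was -0.96 ± 0.31 (limma, adjusted p = 0.13). Without the library labelled SUM149PT siCtrl 2 it was -2.04 in SUM149PT and -1.20 over the 3 lines, and the latter passed the adjusted threshold. That library also had the lowest correlation with the others of its group (r = 0.891 across probes). Its INSIG2 (1719), MSMO1 (1317), NPC1 (3640) and LIPA (974) lay above those of both other siCtrl libraries, which had 270 and 211, 32.9 and 28.8, 1363 and 921, and 259 and 237 of these genes in turn. The counts of members and the medians in SUM149PT are given with and without it.

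Replicates also differed by a deviation that followed the GC content of the transcripts. For each library, the deviation of every probe from the mean of its line was correlated with GC content over 10208 probes. In BT549 this r was -0.373, 0.240 and 0.435 after siASAP1 and -0.104, -0.221 and -0.220 after siCtrl. In Hs578T it was -0.028, -0.182 and 0.194 after siASAP1 and -0.152, -0.236 and 0.252 after siCtrl. In SUM149PT it was -0.182, 0.338 and -0.262 after siASAP1 and 0.212, -0.341 and 0.261 after siCtrl. Libraries of 1 group therefore fell on both sides of 0 in each line except for the siCtrl group of BT549. The median GC content was 50.3% for the sterol branch, 57.1% for the SREBP regulators, 43.6% for transport and storage, 48.7% for the fatty acid branch and 47.1% for all probes.

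The labels of the lines were checked against marker genes. EPCAM, an epithelial adhesion protein, had 31521, 20396 and 36679 normalized counts in the siCtrl libraries of SUM149PT. CDH1, another, had 94.4, 114 and 87.9 there and was at 0 reads in every BT549 and Hs578T library. The more abundant of the 2 probes of VIM, a mesenchymal filament protein, had 27346, 36307 and 32649 in the siCtrl libraries of BT549, 108625, 126601 and 218740 in those of Hs578T and 2908, 1994 and 2965 in those of SUM149PT. CDH2, a mesenchymal cadherin, had 462, 262 and 253 in BT549, 3264, 3222 and 5543 in Hs578T and 1628, 1463 and 2108 in SUM149PT. EPCAM and CDH1 were highest in SUM149PT and VIM was lowest there, but CDH2 was higher in SUM149PT than in BT549, and the mesenchymal factor ZEB1 was at or near 0 reads in every line. Some markers differed by transfection without overlap. In SUM149PT VIM had 791, 1040 and 955 after siASAP1, below each siCtrl library, and CDH1 had 229, 263 and 210, above each. KRT8, another epithelial marker, was lower there, with 7746, 10006 and 8739 after siASAP1 and 11141, 10256 and 17042 after siCtrl. The 3 probes of FN1, a matrix protein of mesenchymal cells, were higher there after siASAP1. Of these, 1 had 4322, 5346 and 3493 against 973, 753 and 836. In BT549 they were higher too, that probe with 8397, 11126 and 8641 against 6137, 6277 and 7517. CDH2 was also higher in BT549 (555, 556 and 691 against 462, 262 and 253), and FABP4, an adipocyte marker, was lower. In Hs578T EPCAM was higher (61.2, 25.4 and 77.8 against 22.8, 10.6 and 23.6). The part of these markers in the results was not tested. PGR was at or near 0 reads in all lines, as was the immune marker PTPRC. Estrogen receptor (ESR1) reads were absent in BT549 but reached 191 normalized counts in SUM149PT. PLIN1 and LEP, markers of adipocytes, were at 0 reads in every library, while FABP4 reached 31.6 in BT549.

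SREBF2 had the same direction in the 3 lines. In BT549 it had 49.8, 41.5 and 45.6 normalized counts after siASAP1 and 93.6, 119 and 139 after siCtrl. In Hs578T the counts of SREBF2 were 30.6, 17.3 and 29.9 after siASAP1 and 81, 52.2 and 96.5 after siCtrl. In SUM149PT the counts of SREBF2 were 87.3, 89.7 and 61.8 after siASAP1 and 237, 147 and 246 after siCtrl. In each line all 3 siASAP1 libraries lay below all 3 siCtrl libraries, including the library labelled SUM149PT siCtrl 2. Of all probes, 0.601% were lower without overlap in every line, and SREBF2 was 1 such probe among the 36 member probes tested. The Log2 FC was -1.33 ± 0.45 in BT549 (limma, adjusted p = 0.56), -1.52 ± 0.47 in Hs578T (adjusted p = 0.91) and -1.37 ± 0.47 in SUM149PT (adjusted p = 0.42). Each passed the limits that the study set for differentially expressed genes (DEGs). These ask for p below 0.05 before adjustment and a Log2 FC above 1 or below -1. The study set them on the Wald test of DESeq2, and here they were set on limma. Over the 3 lines, SREBF2 fell by 1.41 on the log2 scale (limma, adjusted p = 0.0041). In a culture, a lower level in every cell and fewer cells with the RNA cannot be told apart.

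In GRCh38 with the GENCODE release 29 annotation, SREBF2 is a protein-coding gene on the plus strand of chromosome 22, from 41833079 to 41907308. Its transcript had a GC content of 57.1%. The siASAP1 libraries of BT549 with opposite GC deviations, replicates 1 and 3, had 49.8 and 45.6 normalized counts of SREBF2. The 2 siCtrl libraries of Hs578T with the most opposite deviations, replicates 2 and 3, had 52.2 and 96.5.

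**Figure D1:**
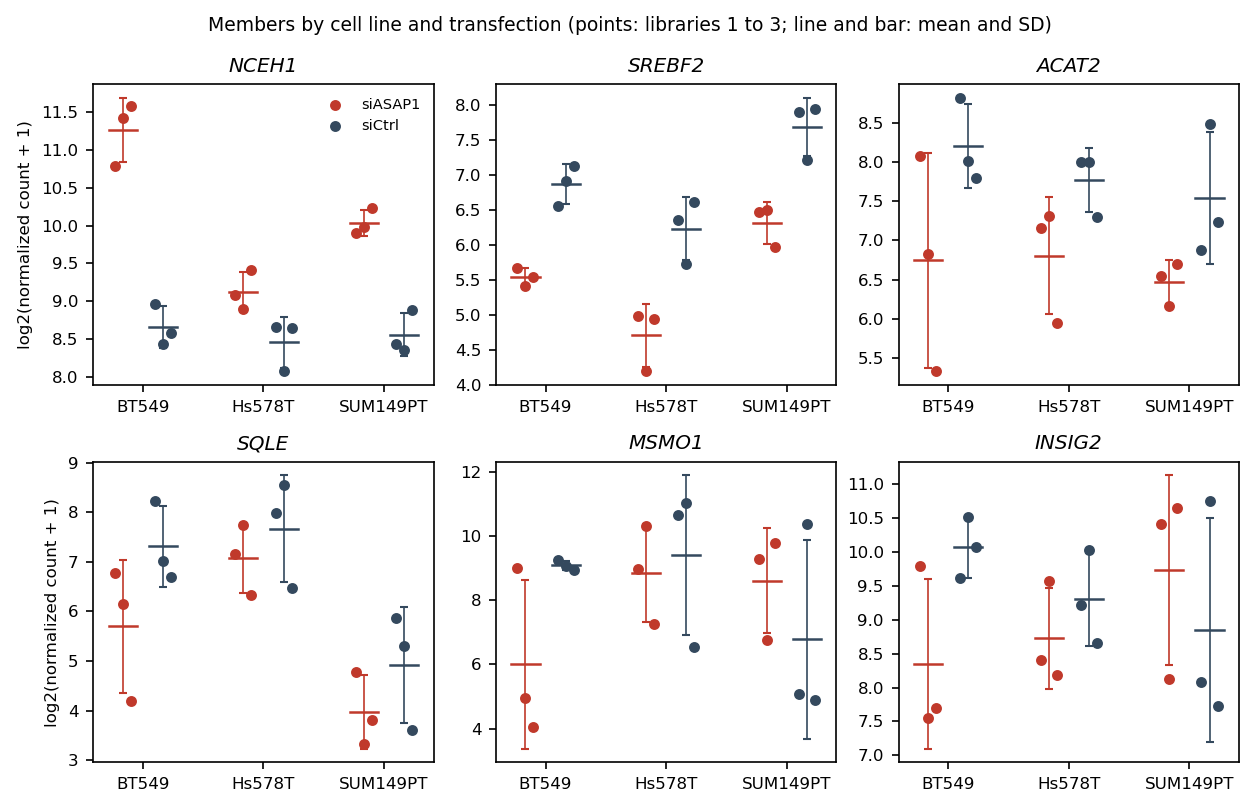
Levels of NCEH1, SREBF2, ACAT2, SQLE, MSMO1 and INSIG2 as log2(normalized count + 1), with the 3 siASAP1 and 3 siCtrl libraries of each cell line as points and the mean and SD as lines and bars; each panel has its own axis, which does not start at 0. NCEH1 and SREBF2 separate siASAP1 from siCtrl in each cell line, while the groups of MSMO1 and INSIG2 overlap in each cell line.

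None of the other 4 SREBP regulators passed the adjusted threshold over the lines, where INSIG2 and SCAP had a Log2 FC below 0 and INSIG1 and SREBF1 above it. INSIG2, which retains SCAP, met the DEG limits in BT549 (Log2 FC -1.72 ± 0.58; limma, adjusted p = 0.56), where it had 885, 187 and 207 normalized counts after siASAP1 and 784, 1465 and 1073 after siCtrl. The Hs578T libraries held 340, 761 and 291 of INSIG2 after siASAP1 and 595, 1039 and 404 after siCtrl. The SUM149PT libraries held 1365, 278 and 1612 of INSIG2 after siASAP1 and 270, 1719 and 211 after siCtrl. The groups of INSIG2 overlapped in each line. Replicate 1 of siASAP1 in BT549, the library with the lowest r of GC deviation in that line, had more than 4 times the INSIG2 count of the other siASAP1 libraries. The INSIG2 transcript is poor in GC (35.4%), and its level in BT549 had an r of -0.91 with the GC deviation. Members poor in GC did not share 1 sign there, with -0.81 for STARD4 (34.2%) and 0.74 for SOAT1 (40%). The part of GC content was not tested. After correction of the values for GC content the Log2 FC of INSIG2 in BT549 was -1.34 (limma, adjusted p = 0.4).

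INSIG1, the other INSIG gene and a target of SREBPs, had 1097, 3044 and 1396 normalized counts after siASAP1 and 1410, 1072 and 983 after siCtrl in BT549. It had 2339, 2505 and 2649 and 2196, 1661 and 2501 in Hs578T. It had 669, 2490 and 894 and 920, 202 and 921 in SUM149PT. Its Log2 FC over the 3 lines was 0.61 ± 0.31 (limma, adjusted p = 0.34), and its groups overlapped in each line.

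SCAP, the escort of the SREBPs, had 276, 212 and 422 normalized counts after siASAP1 and 442, 279 and 308 after siCtrl in BT549. It had 301, 260 and 283 and 316, 265 and 440 in Hs578T. It had 205, 263 and 216 and 400, 284 and 360 in SUM149PT, the line in which its groups did not overlap. Its Log2 FC over the lines was -0.35 ± 0.18 (limma, adjusted p = 0.37). SREBF1, the gene of the fatty acid regulator, was read at low levels, with at most 58.5 normalized counts in any library, and its Log2 FC was 1.06 ± 0.67 over the lines (limma, adjusted p = 0.47).

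In BT549, 6 of the 17 probes tested of the mevalonate and sterol branch met the DEG limits and all 6 were lower, namely ACAT2, IDI1, SQLE, MSMO1, SC5D and EBP. Among the members as a whole, 9 of 39 probes met these limits in BT549, 8 lower and 1 higher, compared with 6.97% of all probes, 3.69% lower and 3.28% higher. After adjustment over all 9666 probes, 0 probes were called in BT549 by limma, and 754 had an unadjusted p under 0.05. Weights from voom on the recovered reads gave 8 adjusted calls, 1 of them a member. Of the 17 probes, 14 had a Log2 FC below 0 (median -0.81), while the median of all probes was close to 0. The count of 9 members in BT549 was 15 without replicate 1 of siASAP1 (where 22.5% of all probes met the limits), 3 without replicate 3 of siASAP1 (3.44%) and 5 without replicate 1 of siCtrl (5.37%). Adjusted calls, 0 with all libraries, came to 544 probes and 6 members without replicate 1 of siASAP1.

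In 5 of the 6 groups the library with the highest r of GC deviation had the lowest level of the branch, and in the siCtrl group of BT549 it did not. Over the 11 branch probes that passed the filter in every line, the mean log2 level relative to siCtrl was -0.31, -1.12 and -2.14 in the siASAP1 libraries of BT549, in which r was -0.373, 0.240 and 0.435. In the siCtrl libraries of Hs578T it was 0.55, 0.39 and -0.94, with r of -0.152, -0.236 and 0.252. In the siCtrl libraries of BT549 it was 0.47, -0.21 and -0.26, with r of -0.104, -0.221 and -0.220. After correction for GC content, the branch had 14 of 17 probes below 0 in BT549 (median -0.85). The DEG limits were then met by 6 branch probes and by 7.14% of all probes. The correction takes out only the median shift of transcripts of like GC content, so other differences between libraries stay in. In BT549 the r of level with GC deviation was -0.94 for CYP51A1 (GC content 41.5%), -0.96 for FASN (65.3%) and 0.90 for NSDHL (50.5%). The part of such differences in the branch counts was not tested.

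ACAT2, whose enzyme makes acetoacetyl-CoA at the head of the branch, had 268, 113 and 39.2 normalized counts after siASAP1 and 449, 258 and 221 after siCtrl in BT549. For ACAT2 in Hs578T, the siASAP1 libraries had 142, 158 and 60.8 and the siCtrl libraries 256, 255 and 157. For ACAT2 in SUM149PT, the siASAP1 libraries had 92.6, 70.5 and 103 and the siCtrl libraries 117, 358 and 150. The groups overlapped in BT549 and Hs578T, in BT549 through the first siASAP1 library, and did not overlap in SUM149PT. ACAT2 met the DEG limits in BT549 (Log2 FC -1.46 ± 0.65; limma, adjusted p = 0.64). Its Log2 FC over the 3 lines was -1.17 ± 0.34, the lowest of the branch, but it did not pass (limma, adjusted p = 0.081). Without replicate 1 of siASAP1 in BT549 it passed.

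SQLE, squalene epoxidase, had 108, 69.9 and 17.3 normalized counts after siASAP1 and 301, 128 and 102 after siCtrl in BT549. In Hs578T it had 141, 214 and 80 after siASAP1 and 253, 374 and 87.7 after siCtrl. In SUM149PT it had 26.5, 8.97 and 13.1 after siASAP1 and 57.2, 38.3 and 11.2 after siCtrl. The groups overlapped in each line. SQLE met the DEG limits in BT549 (Log2 FC -1.60 ± 0.70; limma, adjusted p = 0.63), and its Log2 FC over the lines was -1.05 ± 0.43 (limma, adjusted p = 0.23).

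CYP51A1, the demethylase of lanosterol, had 246, 136 and 69.4 normalized counts after siASAP1 and 225, 239 and 309 after siCtrl in BT549. In Hs578T the counts of CYP51A1 were 520, 688 and 210 after siASAP1 and 672, 765 and 384 after siCtrl. In SUM149PT the counts of CYP51A1 were 250, 163 and 286 after siASAP1 and 376, 813 and 297 after siCtrl. Its groups did not overlap in SUM149PT and overlapped in the other lines. Its Log2 FC over the lines was -0.80 ± 0.29 (limma, adjusted p = 0.17), and with all libraries and no GC correction it met the DEG limits in no line. It met them in BT549 without replicate 1 of siASAP1 (-1.38; limma, adjusted p = 0.082) and in SUM149PT with the GC correction (-1.07; limma, adjusted p = 0.36), where 22.5% and 10.9% of all probes did.

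EBP, an isomerase late in the branch, had 99.6, 93.5 and 38.3 normalized counts after siASAP1 and 352, 165 and 132 after siCtrl in BT549. The SUM149PT libraries held 42.3, 91 and 38.1 of EBP after siASAP1 and 154, 142 and 181 after siCtrl. In Hs578T a single library held reads of EBP, 3 in all, and the other 5 were at 0. EBP was lower without overlap in both lines that expressed it. The Log2 FC was -1.46 ± 0.55 in BT549 (limma, adjusted p = 0.61) and -1.57 ± 0.53 in SUM149PT (adjusted p = 0.41), each past the DEG limits. The fit over the 3 lines, which includes Hs578T, gave -0.85 ± 0.41 (limma, adjusted p = 0.32).

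IDI1, which isomerizes the isoprenoid building block, had 660, 295 and 271 normalized counts after siASAP1 and 1243, 947 and 838 after siCtrl in BT549. The Hs578T libraries held 803, 1972 and 402 of IDI1 after siASAP1 and 1626, 2082 and 760 after siCtrl. For IDI1 in SUM149PT, the siASAP1 libraries had 673, 413 and 962 and the siCtrl libraries 558, 1312 and 528. The groups did not overlap in BT549, where IDI1 met the DEG limits (Log2 FC -1.41 ± 0.43; limma, adjusted p = 0.53). They overlapped in Hs578T (-0.67 ± 0.56) and SUM149PT (-0.18 ± 0.52).

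MSMO1 and SC5D act after lanosterol, as a methylsterol oxidase and a sterol desaturase. MSMO1 had 506, 30.2 and 15.5 normalized counts after siASAP1 and 603, 529 and 492 after siCtrl in BT549. For MSMO1 in Hs578T, the siASAP1 libraries had 495, 1264 and 152 and the siCtrl libraries 1591, 2082 and 92.6. In SUM149PT it had 626, 106 and 875 after siASAP1 and 32.9, 1317 and 28.8 after siCtrl. Its replicates differed by more than 10 times within 1 group in each line, and its groups overlapped in each line. The Log2 FC of MSMO1 was -3.08 ± 1.01 in BT549 (limma, adjusted p = 0.55), -0.56 ± 1.11 in Hs578T and 1.82 ± 1.48 in SUM149PT, and -0.61 ± 0.94 over the lines (limma, adjusted p = 0.82). The libraries low in MSMO1 were those with a GC deviation above 0, namely replicates 2 and 3 of siASAP1 in BT549, replicate 3 of both groups in Hs578T, and replicate 2 of siASAP1 and replicates 1 and 3 of siCtrl in SUM149PT. The MSMO1 transcript has a GC content of 38.1%, and after correction for GC content its Log2 FC was -2.73 in BT549 (limma, adjusted p = 0.4), -0.54 in Hs578T and 1.54 in SUM149PT. Without the library labelled SUM149PT siCtrl 2 it was 3.62 in SUM149PT (limma, adjusted p = 0.067).

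**Figure D2:**
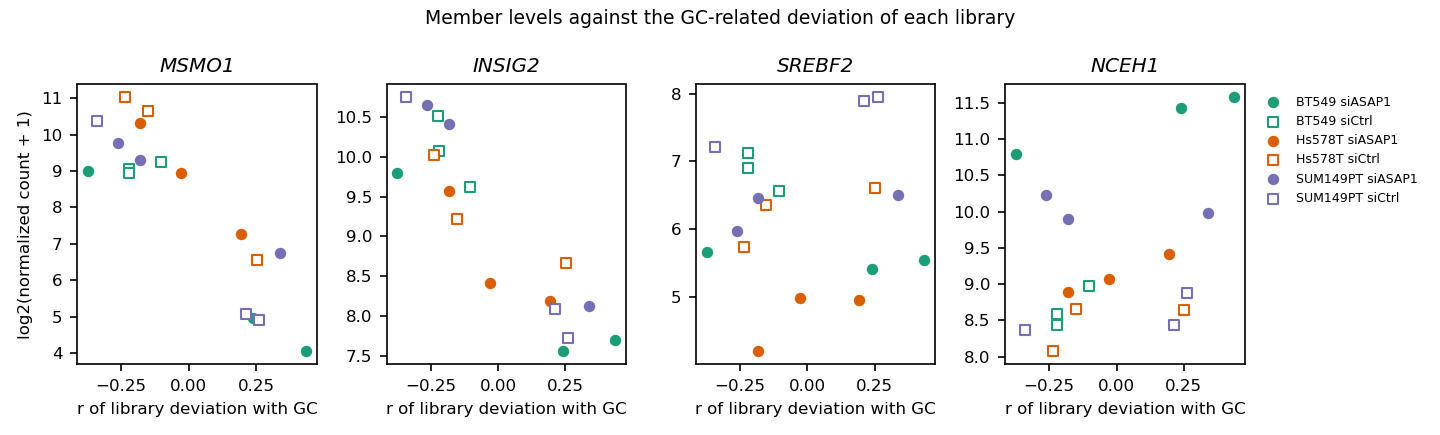
Level of MSMO1, INSIG2, SREBF2 and NCEH1, as log2(normalized count + 1), against the correlation r of each library's deviation from the mean of its line with GC content; each point is 1 of 18 libraries, filled for siASAP1 and open for siCtrl, and each panel has its own vertical axis. In each line, MSMO1 is lower in every library with r above 0 than in any library with r below 0, as is INSIG2 in BT549 and SUM149PT, while SREBF2 and NCEH1 lie apart by transfection within each line.

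SC5D had 93.3, 46.3 and 17.3 normalized counts after siASAP1 and 303, 109 and 105 after siCtrl in BT549. In Hs578T it had 107, 143 and 44.8 after siASAP1 and 300, 314 and 46.3 after siCtrl. In SUM149PT the counts of SC5D were 63.5, 33.3 and 110 after siASAP1 and 90.1, 118 and 40 after siCtrl. The groups did not overlap in BT549, where SC5D met the DEG limits (Log2 FC -1.82 ± 0.68; limma, adjusted p = 0.6), and overlapped in the other lines. Its Log2 FC was -0.89 in Hs578T and -0.29 in SUM149PT.

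In Hs578T, SREBF2 alone met the DEG limits among 32 member probes, compared with 2.78% of all probes, 1.44% lower and 1.34% higher. Of the 12 sterol branch probes tested there, 10 had a Log2 FC below 0 (median -0.58, all probes 0.01). In SUM149PT, 4 of 37 member probes met the limits, EBP and SREBF2 lower and NCEH1 and SCD higher, compared with 9.56% of all probes, 4.29% lower and 5.27% higher. Of the 15 sterol branch probes tested there, 10 had a Log2 FC below 0 (median -0.72, all probes 0.09). Adjustment over all probes left 0 calls by limma in Hs578T, where 502 probes had p below 0.05 before adjustment, and 0 in SUM149PT, where 1025 did. Weights from voom also gave 0 in each. In SUM149PT without the library labelled siCtrl 2, 9 member probes met the limits, where 23.4% of all probes did, 2 of them lower (EBP and SREBF2) and 7 higher (NCEH1, SCD, INSIG2, LIPA, MSMO1, NPC1 and TM7SF2). TM7SF2 passed the filter in SUM149PT through its siASAP1 libraries, with and without that library. It had 35.7, 21.8 and 15.8 normalized counts after siASAP1 and 0, 13.7 and 0 after siCtrl, the 13.7 in that library. The count of 4 was 2 without replicate 3 of siASAP1 (5.69% of all probes) or replicate 1 of siCtrl (4.95%), and 1 without replicate 3 of siCtrl (5.87%). The count of 1 in Hs578T was 7 without replicate 3 of siCtrl (6.67%), 3 without replicate 2 of siASAP1 (4.97%) and 2 without replicate 2 of siCtrl (3.31%). The sterol branch median rested on single libraries as well. In Hs578T it ran from -1.02 without replicate 2 of siASAP1 to -0.12 without replicate 3, and in SUM149PT it was -0.12 without replicate 2 of siASAP1.

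The remaining sterol branch genes did not pass an adjusted threshold either. In the fit over the 3 lines, 7 of the 15 probes had an unadjusted p under 0.05, all of them lower, compared with 8.17% of all probes. They were ACAT2, SQLE, CYP51A1, MVD, IDI1, HSD17B7 and SC5D. MVD, the decarboxylase that makes the isoprenoid building block, had a Log2 FC of -0.94 ± 0.40, and HSD17B7, a sterol ketoreductase, had -0.93 ± 0.42. DHCR7, the enzyme of a last step to cholesterol, had -1.11 ± 0.64 and was read at no more than 54.3 normalized counts. LSS, lanosterol synthase, was the 1 probe of the branch above 0 (0.09 ± 0.24). The SE of FDFT1 (-0.50 ± 0.40), FDPS (-0.14 ± 0.26), NSDHL (-0.52 ± 0.73) and MVK (-0.10 ± 0.65) was of the order of the difference or larger. HMGCS1 was read at 25.1 normalized counts at most and was outside this fit, as was TM7SF2. Without the library labelled SUM149PT siCtrl 2, 14 of 15 probes were again below 0 (median -0.80). Of the 15, 5 had an unadjusted p under 0.05, where 7.81% of all probes did in that direction. Without replicate 1 of siCtrl in BT549, 4 of 35 member probes had such a p (9 of 36 with all libraries). SREBF2 and NCEH1 were among the 4, and 1376 of all 10505 probes had such a p. Without replicate 3 of siASAP1 in BT549 it was 5 of 35 (1477 of 10391 probes).

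NCEH1 showed the smallest p-value of the members in the fit over the lines. It is a protein-coding gene on the minus strand of chromosome 3, from 172630249 to 172711218 (GRCh38, GENCODE release 29). In BT549 it had 1770, 2753 and 3059 normalized counts after siASAP1 and 500, 345 and 382 after siCtrl. In Hs578T the counts of NCEH1 were 539, 474 and 681 after siASAP1 and 402, 268 and 398 after siCtrl. The SUM149PT libraries held 955, 1011 and 1198 of NCEH1 after siASAP1 and 345, 328 and 470 after siCtrl. All siASAP1 libraries lay above all siCtrl libraries in each line, which 0.305% of all probes did. The lowest siASAP1 library of BT549 had over 3 times the count of the highest siCtrl library, while in Hs578T the groups lay close together. The Log2 FC was 2.60 ± 0.37 in BT549 (limma, adjusted p = 0.054), 0.67 ± 0.30 in Hs578T (adjusted p = 0.92) and 1.48 ± 0.37 in SUM149PT (adjusted p = 0.33). It met the DEG limits in BT549 and SUM149PT, and not in Hs578T, where the Log2 FC was below 1. Over the 3 lines NCEH1 rose by 1.59 on the log2 scale (limma, adjusted p = 0.003).

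With all libraries, none of the other 5 transport and storage genes tested passed the DEG limits in the fit of a line or the adjusted threshold over the lines. Without replicate 1 of siASAP1 in BT549, ABCA1, LIPA and STARD4 met the DEG limits there and were lower, where 22.5% of all probes met them. In SUM149PT 5 of the 6 probes of the group had a Log2 FC above 0, SOAT1 without overlap (299, 364 and 300 normalized counts after siASAP1 and 209, 89.3 and 286 after siCtrl). Without the library labelled SUM149PT siCtrl 2, NPC1 and LIPA met the DEG limits in SUM149PT and were higher (23.4% of all probes). STARD4, a carrier of sterol between membranes and a known SREBP target, had 404, 277 and 132 normalized counts after siASAP1 and 584, 351 and 424 after siCtrl in BT549. It had 177, 178 and 96 and 267, 216 and 105 in Hs578T. It had 110, 61.5 and 72.3 and 87.2, 178 and 84.7 in SUM149PT. Its groups overlapped in each line, and its Log2 FC over the lines was -0.55 ± 0.27 (limma, adjusted p = 0.33).

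NPC1, the cholesterol exporter of late endosomes and lysosomes, had 5165, 2456 and 3152 normalized counts after siASAP1 and 2467, 2815 and 2896 after siCtrl in BT549. It had 4688, 5436 and 3957 and 4083, 7411 and 3344 in Hs578T. It had 5432, 2097 and 3691 and 1363, 3640 and 921 in SUM149PT. The groups overlapped in each line, and the Log2 FC over the lines was 0.47 ± 0.27 (limma, adjusted p = 0.44). The Log2 FC over the lines was 0.40 ± 0.26 for SOAT1, 0.13 ± 0.33 for LIPA, the lysosomal acid lipase, and -0.02 ± 0.35 for ABCA1. The median of the 6 transport and storage probes tested over the lines was 0.26, and 2 of them were below 0.

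With all libraries and no GC correction, 1 gene of the fatty acid branch met the DEG limits, SCD in SUM149PT. SCD, the desaturase that makes monounsaturated fatty acids, had 196, 586 and 283 normalized counts after siASAP1 and 75.8, 179 and 24 after siCtrl in SUM149PT. In BT549 it had 366, 408 and 75.7 after siASAP1 and 449, 355 and 684 after siCtrl. The Hs578T libraries held 820, 1650 and 421 of SCD after siASAP1 and 1332, 1558 and 82.8 after siCtrl. SCD was higher without overlap in SUM149PT (Log2 FC 2.19 ± 0.78; limma, adjusted p = 0.43), while its groups overlapped in BT549 (-1.09 ± 0.62) and Hs578T (0.57 ± 0.99). The highest siCtrl library of SUM149PT, at 179, was the library labelled siCtrl 2.

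FASN, fatty acid synthase, had 5364, 2787 and 1673 normalized counts after siASAP1 and 4984, 5820 and 5895 after siCtrl in BT549. For FASN in Hs578T, the siASAP1 libraries had 2531, 2516 and 2601 and the siCtrl libraries 3899, 2349 and 3889. For FASN in SUM149PT, the siASAP1 libraries had 9649, 7400 and 9324 and the siCtrl libraries 7561, 11123 and 7276. Its groups overlapped in each line, and its Log2 FC over the lines was -0.42 ± 0.21 (limma, adjusted p = 0.35). In BT549 the Log2 FC of FASN was -0.92 ± 0.42 (limma, adjusted p = 0.64). There it met the DEG limits with the GC correction (-1.42; limma, adjusted p = 0.59; 7.14% of all probes) and without replicate 1 of siASAP1 (-1.36, adjusted p = 0.043; 22.5%).

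ACACA, the acetyl-CoA carboxylase of fatty acid synthesis, was read at low levels, with 8, 11.3 and 7.3 normalized counts after siASAP1 and 9.98, 15.7 and 9.82 after siCtrl in BT549. It had 4.53, 5.78 and 0 and 5.91, 4.9 and 1.97 in Hs578T. It had 3.97, 17.9 and 9.2 and 20, 34.6 and 19.2 in SUM149PT, without overlap. Its Log2 FC over the lines was -0.75 ± 0.43 (limma, adjusted p = 0.41).

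ACSL1, which activates long-chain fatty acids, had 77.3, 55.7 and 59.3 normalized counts after siASAP1 and 47.4, 32.1 and 42.1 after siCtrl in BT549, where its groups did not overlap. It had 135, 99.4 and 87.4 and 130, 73.4 and 74.9 in Hs578T. It had 35.7, 85.9 and 35.5 and 64.4, 20 and 20.8 in SUM149PT. The groups overlapped in Hs578T and SUM149PT, and the Log2 FC over the lines was 0.51 ± 0.30 (limma, adjusted p = 0.42). ACLY, which supplies cytosolic acetyl-CoA to both branches, had 0.20 ± 0.32 over the lines. FADS1, a desaturase of polyunsaturated fatty acids, had 0.08 ± 0.22, and ACSL3 and ACSL4, further acyl-CoA synthetases, had 0.09 ± 0.18 and -0.23 ± 0.30. For ACACB, the mitochondrial carboxylase, the value was -0.55 ± 0.34. ACSS2 had the lowest Log2 FC of the branch over the lines, at -1.17. It was read at 0 to 64 reads per library, with the 64 in the library labelled SUM149PT siCtrl 2. Among the single lines it passed the filter in SUM149PT only.

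Side by side, the branches stood as follows. In BT549, Hs578T and SUM149PT, the sterol branch had median Log2 FCs of -0.81, -0.58 and -0.72. That of the fatty acid branch was -0.33, 0.23 and -0.11, and that of the SREBP regulators -0.21, -0.25 and 0.88. The median of transport and storage was -0.25, 0.09 and 0.78. The sterol branch median thus lay below that of the fatty acid branch in each line, and the difference of the 2 medians was not tested. The other medians rested on single libraries too. In BT549, with each library left out in turn, that of the SREBP regulators ran from -0.47 to 0.02. That of transport and storage ran from -0.56 to -0.03, and the GC correction took the regulator median to -0.61. With libraries left out in the same way, the fatty acid branch median ran from -0.445 to -0.195 in BT549 and from 0.077 to 0.287 in Hs578T. In SUM149PT the GC correction took it from -0.11 to -0.194. The transport and storage median in Hs578T ran from 0.063 to 0.178. The regulator median was -0.62 in Hs578T without replicate 1 of siCtrl, and in SUM149PT it lay between 0.31 and 0.54 with any 1 library left out. Without the library labelled SUM149PT siCtrl 2, the medians in SUM149PT were -0.56 for the sterol branch, 0.24 for the fatty acid branch, 0.31 for the SREBP regulators and 1.36 for transport and storage, in which 3 of 6 probes then met the DEG limits, where 23.4% of all probes did. Counted by libraries that did not overlap, 6 of 39 member probes were lower and 2 higher in BT549 (all probes 6.51% and 7.35%), 1 of 32 lower and 1 higher in Hs578T (5.78% and 6.31%), and 7 of 37 lower and 5 higher in SUM149PT (8.41% and 8.87%). The 5 higher in SUM149PT include TM7SF2, which passed the filter there through its siASAP1 libraries. By unadjusted p under 0.05 in the fit over the lines, 8 of 36 members were lower and 1 was higher (all probes 8.17% and 7.68%). By branch, 7 of 15 sterol branch probes passed and 0 of 10 fatty acid branch probes did. Without replicate 1 of siCtrl in BT549, 4 of 35 members passed over the lines, SREBF2 and NCEH1 among them (1376 of 10505 probes). When the values were corrected for GC content, the sterol branch had 14 of 15 probes below 0. Of the 15, 7 had an unadjusted p under 0.05, where 9.18% of all probes were lower at that p. Library differences that do not follow GC content stay in after this correction.

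**Figure D3:**
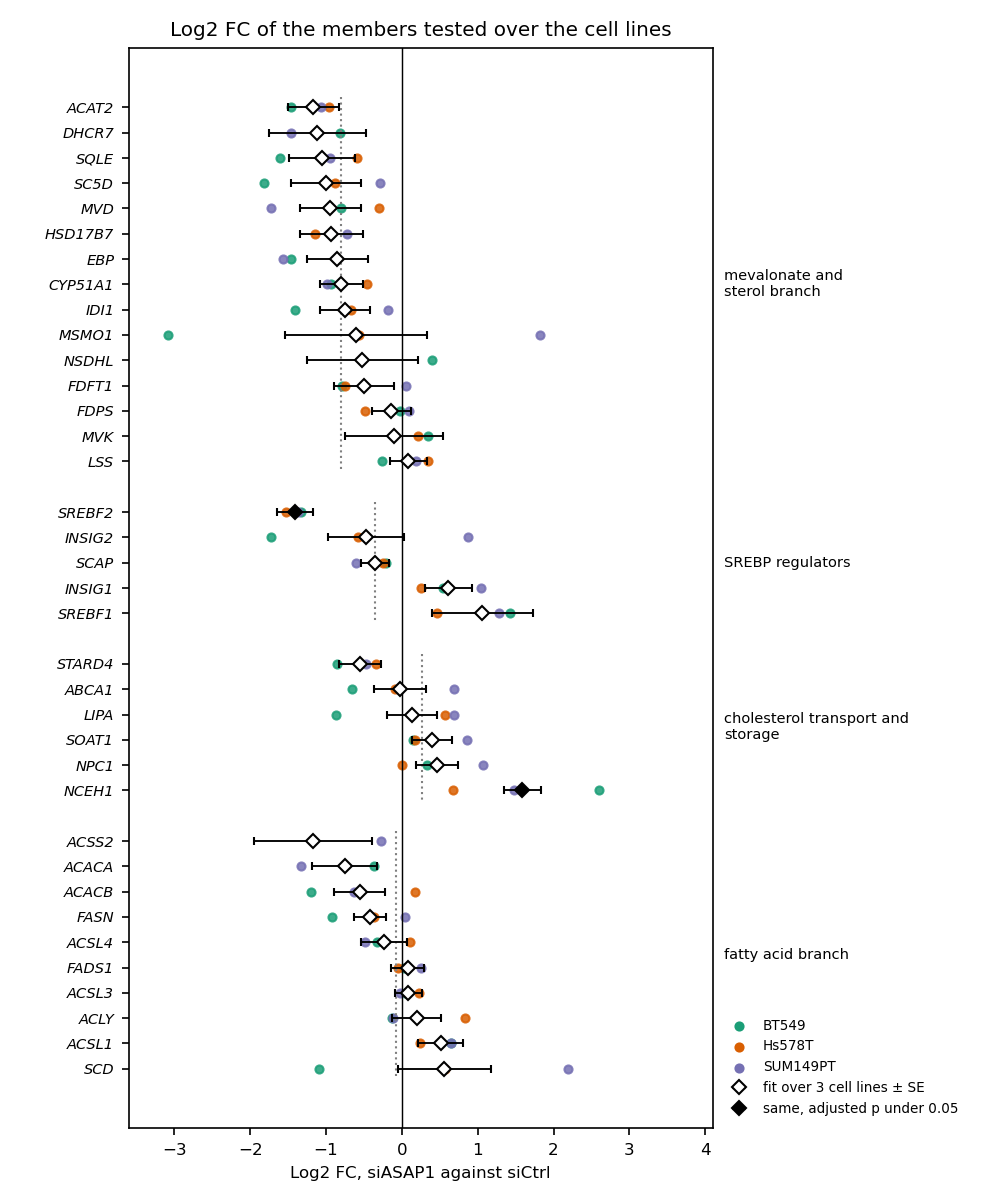
Log2 FC of siASAP1 against siCtrl for the 36 member probes tested over the 3 cell lines, grouped by branch; diamonds with bars are the estimate over the lines and its SE, filled where the adjusted p is under 0.05, coloured points are the single lines where the probe was tested, and dotted lines are the median of each group. In the sterol branch 14 of 15 diamonds lie left of 0, the filled diamonds are SREBF2 and NCEH1, and the fatty acid branch spreads to both sides of 0.

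Other genes of the pathway, 69 in a list drawn up beside the members, were tested in the same fits. By the DEG limits, 0 of 51 probes were higher and 2 lower in BT549 (all probes 3.28% and 3.69%), and 1 of 53 was higher and 0 lower in Hs578T (1.34% and 1.44%). In SUM149PT 3 of 55 were higher and 1 lower (5.27% and 4.29%). The 3 higher include APOL1 and FADS3, which passed the filter there through their siASAP1 libraries. Over the 3 lines, 1 of 54 passed an adjusted p in each direction (all probes 0.678% higher and 1.06% lower). The lower one was TMEM97, a sterol-regulated membrane protein that binds NPC1. TMEM97 had 237, 198 and 222 normalized counts after siASAP1 and 538, 367 and 428 after siCtrl in BT549. In Hs578T it had 124, 154 and 98.1 after siASAP1 and 268, 160 and 226 after siCtrl. In SUM149PT it had 114, 94.9 and 138 after siASAP1 and 275, 475 and 436 after siCtrl. It was lower without overlap in each line and fell by 1.18 on the log2 scale over the lines (limma, adjusted p = 0.0063).

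The higher one was APOL1, a lipid-binding apolipoprotein. APOL1 had 16.9, 35.9 and 12.8 normalized counts after siASAP1 and 4.99, 5.03 and 9.12 after siCtrl in BT549. In Hs578T the counts of APOL1 were 135, 150 and 144 after siASAP1 and 57.4, 80 and 77.8 after siCtrl. In SUM149PT the counts of APOL1 were 58.2, 30.8 and 22.3 after siASAP1 and 4.29, 7.29 and 4.8 after siCtrl. It was higher without overlap in each line and rose by 1.67 on the log2 scale over the lines (limma, adjusted p = 0.014). Its siCtrl libraries of BT549 and SUM149PT all lay under 10 normalized counts. In these lines it passed the filter through its siASAP1 libraries, whereas in Hs578T every library lay above 10. By the DEG limits in single lines, 1 probe of SCP2, a sterol carrier, was lower in BT549 (Log2 FC -1.43 ± 0.46) and the other was not (-0.30 ± 0.48). ACSL5, an acyl-CoA synthetase, was higher in Hs578T (1.38 ± 0.40), and PGGT1B, a subunit of a prenyltransferase, was higher in SUM149PT (1.11 ± 0.45). FADS3 also met the limits in SUM149PT, with 11.9, 70.5 and 32.9 normalized counts after siASAP1 and a single read in 1 of the 3 siCtrl libraries, and it passed the filter there through its siASAP1 libraries, so no fold is given.

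Whether the effect of siASAP1 differed between lines was tested by the interaction of line and transfection. No member passed the adjusted threshold (0 of 36 by limma, 1 at an unadjusted p under 0.05, and 0 with voom weights). Of all probes, 0.00955% passed it, which is 1 probe, and 6.22% had an unadjusted p under 0.05. The 1 member at an unadjusted p under 0.05 was NCEH1 (limma, adjusted p = 0.2), whose Log2 FC ran from 0.67 in Hs578T to 2.60 in BT549. SREBF2 had an adjusted p of 1 in the same limma test, with Log2 FCs between -1.52 and -1.33.

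The siCtrl libraries show how the members stood in each line after control transfection. In the library labelled SUM149PT siCtrl 2, however, ASAP1 lay among the siASAP1 libraries. The 3 comparisons of lines share control libraries and were made in 1 limma fit of 10255 probes, with 38 member probes tested. With adjusted p below 0.05 and Log2 FC above 1 or below -1, 3 members were lower in Hs578T than in BT549, where 13.8% of all probes differed, 6.26% lower and 7.58% higher. In SUM149PT, 3 were lower than in BT549 (18.2% of all probes, 8.76% lower and 9.40% higher). Compared with Hs578T, 4 were higher and 3 lower in SUM149PT (20.2% of all probes, 9.64% higher and 10.5% lower). Among these calls, EBP, FADS2 and ACACA averaged under 10 normalized counts in Hs578T and passed the filter of this fit through the other lines. Differences between lines cannot be told apart from differences between the cultures. The counts were 5, 13 and 16 without the library labelled SUM149PT siCtrl 2, where 21.3%, 33.2% and 30.7% of all probes differed, and leaving out any other single library gave between 1 and 7, where between 8.81% and 20.3% of all probes differed.

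EBP had 352, 165 and 132 normalized counts in BT549 and 154, 142 and 181 in SUM149PT, and 0 reads in each siCtrl library of Hs578T. With a floor of 3 reads per library, which is 2.64 normalized counts here and covers counting error only, EBP was at least 81.8-fold higher in BT549 and at least 60.1-fold higher in SUM149PT than in Hs578T. EBP lies on chromosome X, from 48521158 to 48528716 (GRCh38, GENCODE release 29). FADS2, a desaturase of polyunsaturated fatty acids, had 21.2, 11.9 and 21 in BT549, 0, 0 and 0 in Hs578T and 12.9, 0 and 35.2 in SUM149PT. By the same floor it was at least 6.83-fold higher in BT549 than in Hs578T. A read limit of this kind does not show that Hs578T lacks either RNA.

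ABCA1, the cholesterol exporter of the plasma membrane, was graded across the lines. It had 411, 932 and 711 normalized counts in BT549, 122, 163 and 136 in Hs578T and 20, 67.4 and 9.59 in SUM149PT. BT549 was above Hs578T, and Hs578T above SUM149PT, without overlap. The Log2 FC was -2.21 ± 0.65 for Hs578T against BT549 (limma, adjusted p = 0.049), -4.71 ± 0.65 for SUM149PT against BT549 (0.00058) and -2.50 ± 0.65 for SUM149PT against Hs578T (0.022).

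Synthesis genes differed in both directions. LSS had 241, 159 and 166 normalized counts in BT549 and 81.5, 34.6 and 41.6 in SUM149PT (Log2 FC -1.90 ± 0.48; limma, adjusted p = 0.021). STARD4 was lower in SUM149PT than in BT549 as well (-2.01 ± 0.48, adjusted p = 0.015). SQLE (-2.75 ± 0.75, adjusted p = 0.028) and INSIG1 (-1.91 ± 0.55, adjusted p = 0.034) were lower in SUM149PT than in Hs578T by limma. Their per-library values are those given above, and in INSIG1 the lowest SUM149PT library, at 202, was the library labelled siCtrl 2. Without it the Log2 FC of INSIG1 was -1.18 (limma, adjusted p = 0.011). SREBF2 (1.45 ± 0.43, adjusted p = 0.037) and FASN (1.37 ± 0.33, adjusted p = 0.014) were higher in SUM149PT than in Hs578T by limma. ACACA was called higher there as well, but it averaged under 10 normalized counts in Hs578T. It passed the filter of this fit through the other lines, so no fold is given. NCEH1 had 409 ± 81 in BT549, 356 ± 75.9 in Hs578T and 381 ± 77.6 in SUM149PT (mean ± SD, n = 3), and these differed by less than their spread.

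**Figure D4:**
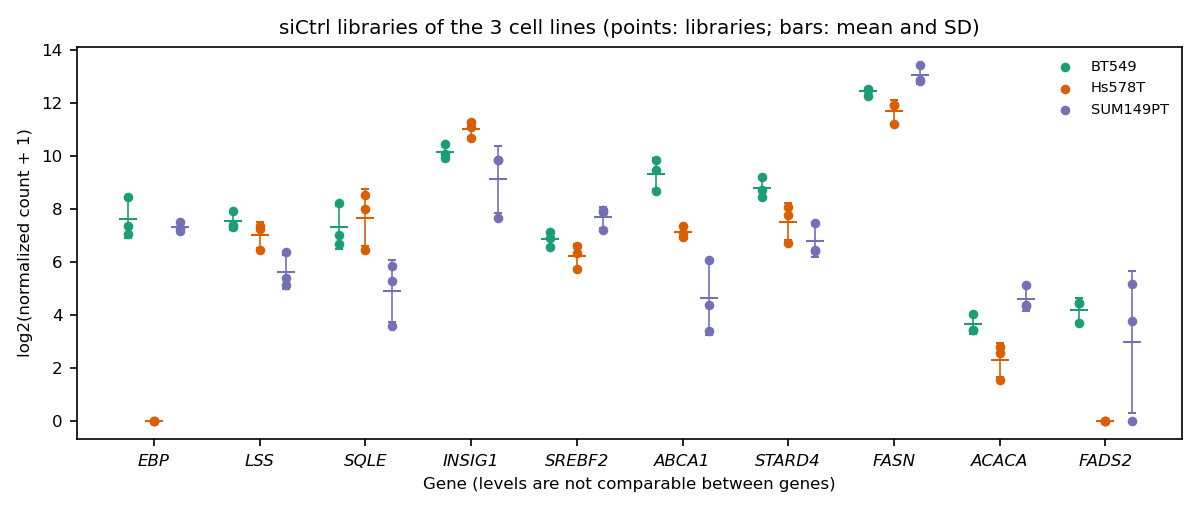
Levels of 10 members in the siCtrl libraries as log2(normalized count + 1), with points for the 3 libraries of each cell line and bars for the mean and SD; levels of different genes cannot be compared. EBP and FADS2 are at 0 in Hs578T, ABCA1 steps down from BT549 to SUM149PT, and SREBF2, FASN and ACACA are higher in SUM149PT than in Hs578T.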

How the data were processed

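The 18 TempO-Seq libraries were grouped by cell line, transfection and replicate from the labels. The authors counted reads per probe, divided them by DESeq2 size factors, added 1 and deposited log2 values. The submitters' notes name bcl2fastq, Bowtie and DESeq2 without versions or a genome build. Undoing the log2 and scaling by 1 step per library gave whole reads for 100% of the entries, within 0.01 read. Nothing in the labels pools replicates, and the methods call them biological triplicates. No 2 libraries of the same group agreed within counting noise.

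A probe was tested if its normalized count averaged 10 or more over the libraries of a fit, by limma (version 3.58.1, under R 4.3.3) with an intensity trend, in the 6 libraries of each line, in all 18 with the line as a covariate, in all 18 with the interaction, and in the 9 siCtrl libraries. All p-values are two-sided and were adjusted by Benjamini-Hochberg over all probes of a fit. Single lines were called by the study's DEG limits, set here on limma and not on the study's DESeq2 test, and the fits over lines by adjusted p. Log2 FCs are on the log2(normalized count + 1) scale, which understates changes of low probes.

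Members and lists were chosen with earlier results of these data known. Values in every library are given for ASAP1, for the 3 probes of each group with the smallest p over the lines, for members past the DEG limits, and for the 3 with the smallest p in each siCtrl comparison. Pathway genes outside the members are named where they met a limit. Alternatives were TMM scaling, library totals, no filter, a minimum mean of 50, a replicate block, 1 fit over 18 libraries, summed probes, a pseudocount of 0.1, voom weights, adjusted calls and each library left out. A GC correction in 20 bins, alone or with the replicate block, was added after seeing the data. The tests were checked on simulated data. Plots were made in matplotlib 3.10.9 (Python 3.11.15).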

Additional observations from a re-analysis of the deposited data

How the results depend on the processing

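SREBF2 kept an adjusted p under 0.05 over the 3 lines in all 28 settings run (limma, 0.0018 to 0.045, highest with the replicate block), and NCEH1 in 27 (0.0013 to 0.066). With the GC correction and the replicate block together NCEH1 was lost, which left 1 member. The replicate block alone took TMEM97 to an adjusted p of 0.058 by limma, gave 2 members in SUM149PT (4 as reported; all probes 3.48% against 9.56%) and 5 for SUM149PT against BT549 controls (3 as reported; all probes 19.7% against 18.2%). Libraries with the same number deviated with an r of -0.35 to 0.11 in BT549, 0.099 to 0.35 in Hs578T and -0.65 to -0.32 in SUM149PT, so the numbers were not taken as pairs. In Hs578T the block raised the probes with an unadjusted p under 0.05 from 502 to 1246 and the adjusted calls from 0 to 37, with 0 members among them. Adjusted calls in place of the DEG limits gave 0 members in each line. In BT549, 1 member had an adjusted p under 0.05 in each of 5 settings. They were no filter, a minimum mean of 50, summed probes, voom weights and one fit over 18 libraries (9, 6, 6, 8 and 22 probes in turn). Over the other settings the adjusted calls were highest without replicate 1 of siASAP1 in BT549 (544 probes, 6 members) and, in SUM149PT, in one fit over 18 libraries (260 probes, 1 member). The GC correction gave 2 members in Hs578T (1 as reported), where 3.03% of all probes were called, or 4.57% with the block. In SUM149PT it gave 6 (10.9%), with CYP51A1 and MVD added as lower, and with the block 2 (4.52%). One fit over 18 libraries gave 7 in SUM149PT (15.5%), and library totals and no filter each gave 5 (10.2% and 7.53%). No filter, and a minimum mean of 50, each left 1 member for Hs578T against BT549 controls (3 as reported), where 9.28% and 14.0% of all probes were called, and a pseudocount of 0.1 left 2 (12.2%). For SUM149PT against BT549 controls, TMM and library totals each gave 4 (18.3% and 18.2%). The cause of these shifts was not tested. With library totals the median of all probes moved to 0.15 over the lines, 0.12 in Hs578T and 0.30 in SUM149PT, and the fatty acid branch medians became 0.05 over the lines and 0.10 in SUM149PT. The sterol branch median over the lines stayed between -0.93 and -0.66. Signs turned for Log2 FCs near 0. NPC1 in Hs578T was 0.002 with TMM, 0.113 with library totals and 0.001 with voom. FASN in SUM149PT was -0.019 with TMM and -0.020 with the GC correction, with or without the block. IDI1 in SUM149PT was 0.039 with library totals, and PGGT1B in BT549 was 0.217 with the GC correction, with or without the block.

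With each library left out in turn, the count of members called ran from 3 to 15 in BT549, 1 to 7 in Hs578T, 1 to 9 in SUM149PT, 2 to 3 over the lines and 0 to 0 for the interaction. For controls it ran from 1 to 5 (Hs578T against BT549), 1 to 13 (SUM149PT against BT549) and 1 to 16 (SUM149PT against Hs578T). Log2 FCs that changed sign were SCAP (-0.471 to 0.022) and PGGT1B (-0.528 to 0.156) in BT549. In Hs578T they were CYP51A1 (-0.815 to 0.039), NPC1 (-0.241 to 0.333), MSMO1 (-1.990 to 0.248) and SCD (-0.796 to 1.314). In SUM149PT they were FASN (-0.071 to 0.235), IDI1 (-0.465 to 0.248) and SC5D (-0.734 to 0.150). Counting error was small at these depths beside the spread between replicates, except for probes with few reads such as ACACA, FADS2, DHCR7 and SREBF1.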
